A study of Drosophila melanogaster with 10 samples.

Results

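Prx6c (FBgn0033518) and CG11825 (FBgn0033519) stand next to each other on chromosome arm 2R of Drosophila melanogaster, and CG13793 (FBgn0031935) and CG13794 (FBgn0031936) stand next to each other on arm 2L. These 4 genes, of 13937 with values in every library, were chosen because both genes of each pair were lower in S2 cells after Elys knockdown than in control S2 cells, each with about 0.5 of its control level. The 4 genes were matched by symbol to their FlyBase identifiers, and all of them had enough reads to enter the comparison of 9156 genes. The genes were thus selected on their TPM and counts in that comparison, and these values are given below as a description, without a test. Tests are given for the genes around the pairs, for the related genes elsewhere in the genome and for listed genes of the same processes.

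The series has 10 samples, of which 4 are poly(A+) RNA-seq libraries and 6 are DamID-seq samples of embryos that were not used here. S2 is an embryonic Drosophila cell line with properties of hemocytes, the blood cells of the fly. Elys is a nucleoporin that binds chromatin, and the cells of the 2 Elys-KD libraries had received double-stranded RNA against Elys, whereas those of the 2 control libraries had received double-stranded RNA against the bacterial gene LacZ. All libraries come from 1 cell line, the labels give no further genotype, and the replicates are described as biological. With 2 libraries per group, no exact two-sided permutation test can give a p under 0.33.

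Prx6c encodes a peroxiredoxin of the Prx6 class, a group of thiol enzymes that reduce hydrogen peroxide and organic peroxides. CG11825 encodes a small protein with a HIG1 domain. In yeast and mammals, mitochondrial proteins of this family are tied to hypoxia and to the assembly of respiratory complexes that contain cytochrome c oxidase (complex IV). CG13793 and CG13794 encode transporters of the SLC6 family, which carry amino acids, neurotransmitters or related solutes into cells together with sodium, and they lie in a small cluster of such genes. The substrates of these transporters were not examined here.

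Elys itself had 4.96 and 4.55 TPM in Elys-KD cells, against 28.3 and 30.2 TPM in control cells, where TPM is a level of transcripts scaled to the same total in every library and corrected for transcript length. Its log2 fold change was -2.67 with a standard error (SE) of 0.046, and its adjusted p by edgeR's quasi-likelihood test was 1.3e-06. Estimated counts per library summed to 57622326 to 58200996 in Elys-KD and to 61350395 to 68034643 in control. Of the 9156 genes tested, 292 (3.19%) met both conditions of a call, a mean TPM that differed more than 1.5-fold between groups and an adjusted p under 0.05, with 233 (2.54%) higher and 59 (0.644%) lower in Elys-KD. An adjusted p under 0.05, whatever the ratio, was found for 1523 genes (16.6%), of which 739 (8.07%) were higher and 784 (8.56%) lower. The median log2 fold change of all tested genes was 0.00, with quartiles at -0.09 and 0.10. The summed level of 10 hemocyte markers, led by the scavenger receptor crq and the GATA factor srp, was 292.5 to 310.9 TPM in Elys-KD and 265.1 to 276.7 TPM in control, while the hemocyte markers NimC1 and lz were at 0.04 TPM or less in every library. Of the hemocyte markers, Pxn (ratio of mean TPM 1.61, adjusted p = 0.00132 by edgeR) and He (2.22, adjusted p = 0.0496) were called higher and ush was higher by the adjusted p alone (0.0142), while Hml (0.872), Col4a1 (0.939) and vkg (0.942) did not pass the test. Of the neuronal markers, the synaptic gene brp was called higher (2.91, adjusted p = 0.00107), and elav did not pass the test (0.944, adjusted p = 0.0548). Summed markers of neurons (3.70 to 4.34 TPM in Elys-KD, 3.20 to 4.05 TPM in control), fat body (0.549 to 0.648 TPM in Elys-KD, 0.515 to 0.560 TPM in control) and ovarian somatic cells (0.124 to 0.136 TPM in Elys-KD, 0.101 to 0.109 TPM in control) were low. Summed muscle markers reached 12.1 to 13.2 TPM in Elys-KD and 8.93 to 9.36 TPM in control, and the germ line genes bam and aub together reached 114 to 119 TPM in Elys-KD and 124 to 127 TPM in control. By the adjusted p alone, Mlc2 was higher (0.00549) and sls (0.0332) and bam (0.00241) were lower. The part of these differences in the results below was not tested.

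Prx6c, the most abundant of the 4 genes, had 86.4 and 75.7 TPM in Elys-KD cells, against 155 and 167 TPM in control cells. Both Elys-KD libraries lay below both control libraries. The means were 81.1 ± 7.55 TPM in Elys-KD and 161 ± 8.79 TPM in control (SD, n = 2 each), so that the level in Elys-KD was 50.4% of control. The log2 fold change fitted to the counts was -0.998 (SE 0.056). Behind these levels stood 3002 and 2670 estimated counts in Elys-KD and 6340 and 6059 in control. In bulk RNA, fewer cells that express a gene and less of its RNA per cell cannot be told apart.

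CG11825, the gene beside it, had 20.1 and 15.4 TPM in Elys-KD cells, against 37.9 and 39.7 TPM in control cells. The groups again did not overlap, although the Elys-KD libraries of CG11825 differed from each other by a factor of 1.31. The means were 17.8 ± 3.37 TPM in Elys-KD and 38.8 ± 1.32 TPM in control (SD, n = 2 each), a 2.18-fold lower level with a log2 fold change of -1.08 (SE 0.11). The counts were 448 and 355 in Elys-KD and 963 and 897 in control.

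CG13793, the rarest transcript of the 4, had 0.920 and 1.26 TPM in Elys-KD cells, against 2.28 and 2.38 TPM in control cells. Each Elys-KD library was below each control library, and the lower and the higher Elys-KD library of CG13793 stood in the ratio 0.733. The means were 1.09 ± 0.237 TPM in Elys-KD and 2.33 ± 0.0677 TPM in control (SD, n = 2 each), which is 2.14-fold lower in Elys-KD, and the log2 fold change was -1.13 (SE 0.18). Its 83 and 115 counts in Elys-KD have exact Poisson intervals at 95% of 66.1 to 103 and 94.9 to 138, and its 247 and 228 counts in control have intervals of 217 to 280 and 199 to 260. These intervals cover counting error only and not the spread between cultures. The reads carry no molecular identifiers, so counts of fragments are not counts of separate molecules.

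CG13794 had 4.87 and 4.64 TPM in Elys-KD cells, against 9.64 and 9.08 TPM in control cells. The libraries of each group lay close together and the groups did not overlap. The means were 4.76 ± 0.163 TPM in Elys-KD and 9.36 ± 0.389 TPM in control (SD, n = 2 each), that is 50.8% of control, with a log2 fold change of -1.01 (SE 0.071). The estimated counts were 464 and 449 in Elys-KD and 1103 and 921 in control.

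**Figure D1:**
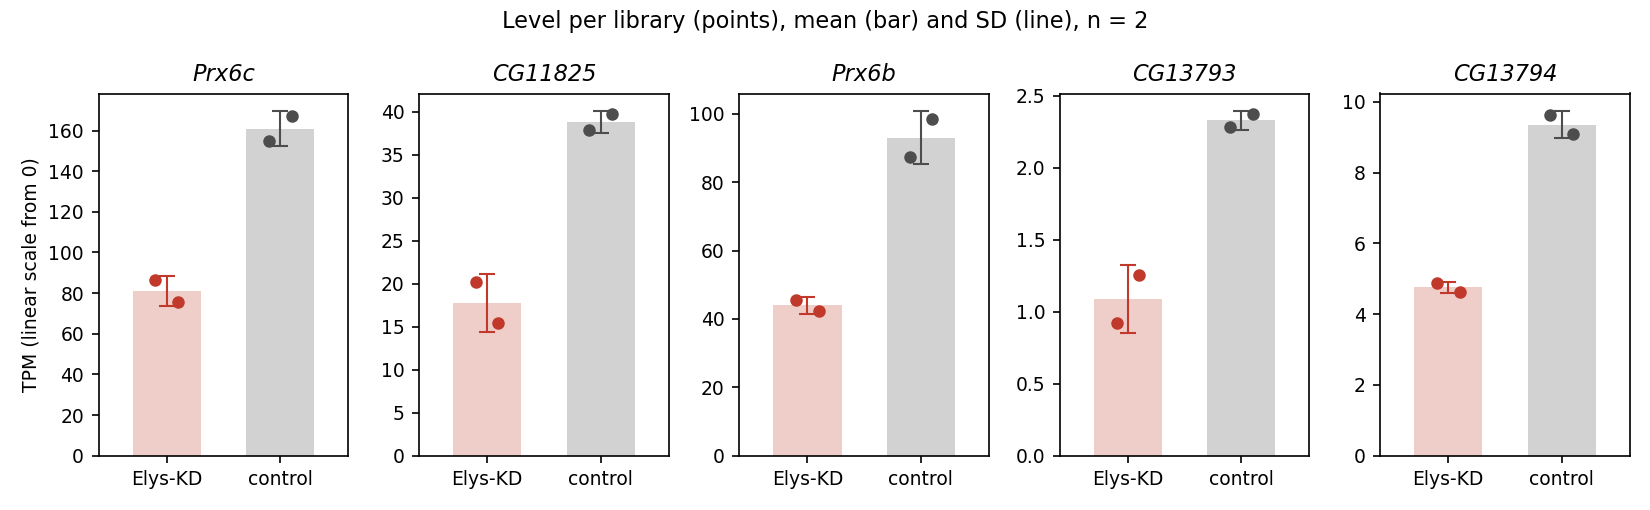
Level in TPM (linear axes from 0, one scale per panel) of Prx6c, CG11825, the related gene Prx6b, CG13793 and CG13794, with Elys-KD libraries left and control libraries right. Points are single libraries, bars the mean and lines the SD (n = 2 each). In every panel both Elys-KD libraries lie below both control libraries, as for CG13794 with 4.87 and 4.64 TPM in Elys-KD against 9.64 and 9.08 TPM in control. The choice of genes for their fall favours this separation, and the share of all tested genes that show it is not given here.

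The choice of the genes fixed fold changes of a similar size, and no choice was made on their levels. The log2 fold changes spanned 0.13, from -1.13 for CG13793 to -0.998 for Prx6c, while their standard errors ran between 0.056 and 0.18. In control cells, the mean TPM of Prx6c was 69.1 times that of CG13793. The order of levels was Prx6c, CG11825, CG13794 and CG13793 in each of the 4 libraries, and every step in this order was larger than the spread between replicates. Within pair 2R, Prx6c was 4.57 times as abundant as CG11825 in Elys-KD and 4.15 times in control. Within pair 2L, CG13794 was 4.37 times as abundant as CG13793 in Elys-KD and 4.02 times in control.

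Set against all tested genes, the 4 genes cover much of the range of expression. Of the 9156 genes, 8.72% had a higher mean control TPM than Prx6c, 34.6% a higher one than CG11825, 65.7% a higher one than CG13794 and 77.0% a higher one than CG13793. The median control level of tested genes was 21.2 TPM, with Prx6c and CG11825 above it and CG13794 and CG13793 below it. A lower log2 fold change than that of CG13793 was found for 22 tested genes, and the corresponding numbers were 27 for CG11825, 34 for CG13794 and 36 for Prx6c. Among the 59 genes called lower in Elys-KD, the median ratio of mean TPM was 0.580 and 21 had a ratio under 0.5, including CG11825 (0.458) and CG13793 (0.467), whereas Prx6c (0.504) and CG13794 (0.508) were just above that value. The threshold of the calls itself lay far from the 4 genes. The aldo-keto reductase gene Akr1B (0.663) and CG8673 (0.665) were just inside it, and btn (0.667) and miple1 (0.675) were just outside it.

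**Figure D2:**
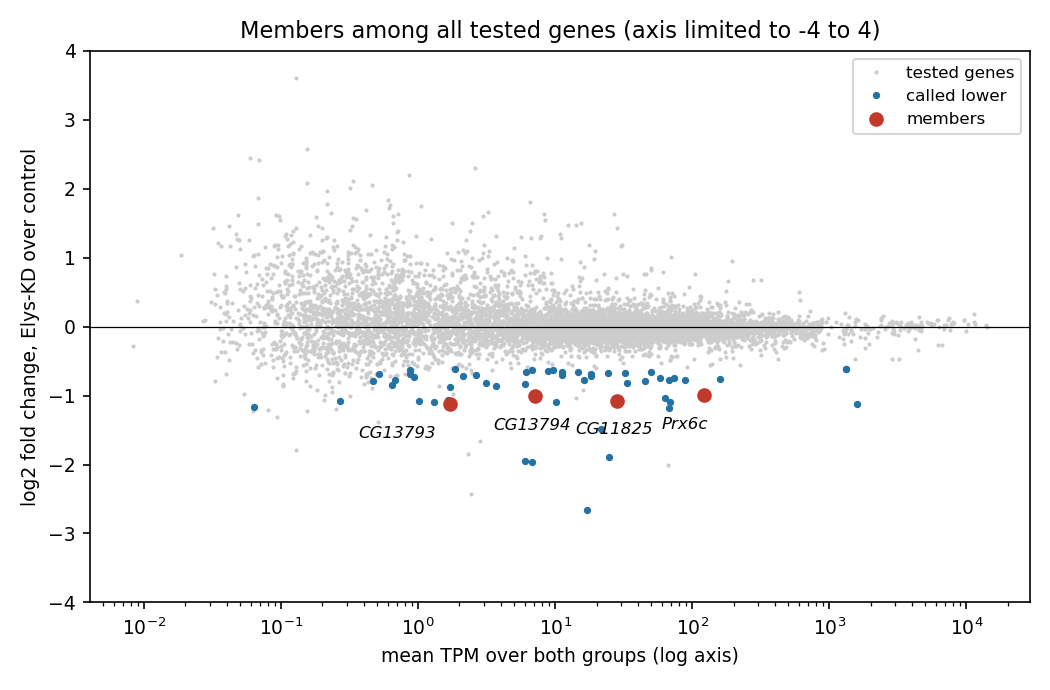
Log2 fold change (Elys-KD over control, vertical axis) of tested genes against their mean TPM over both groups (log axis). Grey points are tested genes, blue points genes called lower and red points Prx6c, CG11825, CG13793 and CG13794; the vertical axis is limited to -4 to 4, which leaves out 7 of the 9156 genes. The 4 genes lie near -1 at levels that differ widely.

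The order of genes was read from the RefSeq annotation of a later assembly, which was used for order only. In that order, Prx6c and CG11825 are followed by CG33474, by Prx6b and by CG12896, so that CG11825 stands among several genes of the Prx6 class. Prx6b (FBgn0033520), a close copy of Prx6c, had 45.6 and 42.2 TPM in Elys-KD cells, against 87.5 and 98.6 TPM in control cells. It fell to a mean of 43.9 ± 2.39 TPM in Elys-KD, against 93.0 ± 7.86 TPM in control (SD, n = 2 each), with a log2 fold change of -1.09 (SE 0.056) and an adjusted p of 9.4e-05 by edgeR's quasi-likelihood test.

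The estimated counts show that fragments were divided within the group of Prx6c, Prx6b and CG12896. Counts of Prx6c were up to 0.42 away from a whole number and those of Prx6b up to 0.36, whereas the counts of Prx6c, Prx6b and CG12896 summed to whole numbers within 0.006 in every library. The sum of Prx6c and Prx6b alone was up to 0.43 away from a whole number. Whether Prx6c and Prx6b shared fragments directly, or each with CG12896, is not recorded. The values of Prx6c and those of Prx6b are therefore not treated as independent measurements. Prx6c and Prx6b together had 132 and 118 TPM in Elys-KD, against 242 and 266 TPM in control, a ratio of 0.492. Prx6c took 65.7% and 64.5% of the counts of this sum in Elys-KD and 64.2% and 63.2% in control, so its share was about the same in both groups. With the copies summed as 1 gene, an alternative chosen after seeing the data, the log2 fold change was -1.03.

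CG12896, which also encodes a protein of the Prx6 class, was close to silent, with 0.596 and 0.477 TPM in Elys-KD and 0.810 and 0.915 TPM in control. Its log2 fold change of -0.70 (SE 0.25) did not pass the edgeR test (adjusted p = 0.102). CG33474, which overlaps CG11825 in the later annotation, had 2.15 and 2.34 TPM in Elys-KD and 3.11 and 2.89 TPM in control, a log2 fold change of -0.40 (SE 0.17) that did not pass either (adjusted p = 0.162). Both genes passed in the test on log2(TPM + 1), with adjusted p-values of 0.0444 for CG12896 and 0.0410 for CG33474 by limma. The counts of CG11825 were whole in every library, so no fragment was shared out between CG11825 and another gene by the estimate. The same held for CG33474. Whether counting used the strand of the reads is not given in the sources used here.

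Beyond this group, the tested neighbours of Prx6c and CG11825 had fold changes closer to 0. RanBPM, named as a Ran-binding protein, had 59.0 and 55.7 TPM in Elys-KD and 51.3 and 52.6 TPM in control, with a log2 fold change of 0.10 and an adjusted p of 0.112 by edgeR. CG12895 was slightly lower, at 49.7 and 48.0 TPM in Elys-KD against 54.6 and 55.4 TPM in control, with a log2 fold change of -0.16 (SE 0.041) and an adjusted p of 0.0430. On the other side, CG33475 had 1.81 and 1.79 TPM in Elys-KD and 1.70 and 1.86 TPM in control (adjusted p = 0.921), and CG33476, CG33477, CR43177 and CG12898 had at most 8 counts in any library and were not tested. Of the 10 neighbours, 6 were tested and 2 (Prx6b and CG12895) had an adjusted p under 0.05 in the lower direction, a direction in which 8.56% of all tested genes had one, and 1 (Prx6b) also passed the rule on the ratio. Since fragments were divided within the group of Prx6c and Prx6b, the test of Prx6b is not independent of the choice of Prx6c.

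Next to CG13793 and CG13794 on arm 2L are further SLC6 transporter genes. CG13795 (FBgn0031937), directly beside CG13794, was the most abundant of the cluster, with 80.1 and 80.9 TPM in Elys-KD and 89.5 and 89.4 TPM in control. Its level in Elys-KD was 90.0% of control, with a log2 fold change of -0.19 (SE 0.036) and an adjusted p of 0.0158 by edgeR, and it did not pass the rule on the ratio. CG13796 was barely detected, at 0.120 and 0.158 TPM in Elys-KD and 0.104 and 0.127 TPM in control, with a log2 fold change of 0.25 (SE 0.32) and an adjusted p of 0.635. CG33296, the SLC6 gene on the other side of CG13793, had 3 and 4 counts in Elys-KD and 3 and 2 counts in control and was not tested.

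Summed over CG13793 to CG13796, the TPM in Elys-KD was 0.854 times that in control, because CG13795 dominated the sum. Summed over CG13793 and CG13794 alone, it was 5.79 and 5.90 TPM in Elys-KD, against 11.9 and 11.5 TPM in control. The counts of CG13793 were whole in every library. Those of CG13794 were up to 0.35 away from a whole number, and the counts of CG13794 and CG13795 summed to whole numbers within 0.05, so that some fragments were divided between these genes. CG13794 took 5.18% and 4.90% of the counts of this sum in Elys-KD and 8.82% and 8.36% in control. How many fragments were divided is not recorded in the tables, and the fold change of CG13794 was not computed without them.

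The thioester protein genes Tep2 and Tep3, whose products belong to innate immunity, lie on the far side of CG33296. Tep2 rose to 47.0 and 40.2 TPM in Elys-KD, against 31.2 and 32.1 TPM in control, with a log2 fold change of 0.42 (SE 0.061) and an adjusted p of 0.00581 by edgeR. Tep3 had 2 and 10 counts in Elys-KD and 11 and 12 in control (adjusted p = 0.456). The remaining neighbours CG43235, CG7025, CG31904, Acp1 and CG7214 had at most 3 counts in any library. Of the 10 neighbours of this pair, 4 were tested, and 1 (CG13795) was lower and 1 (Tep2) higher at an adjusted p under 0.05, against 8.56% and 8.07% of all tested genes. No neighbour of CG13793 and CG13794 passed the rule on the ratio.

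**Figure D3:**
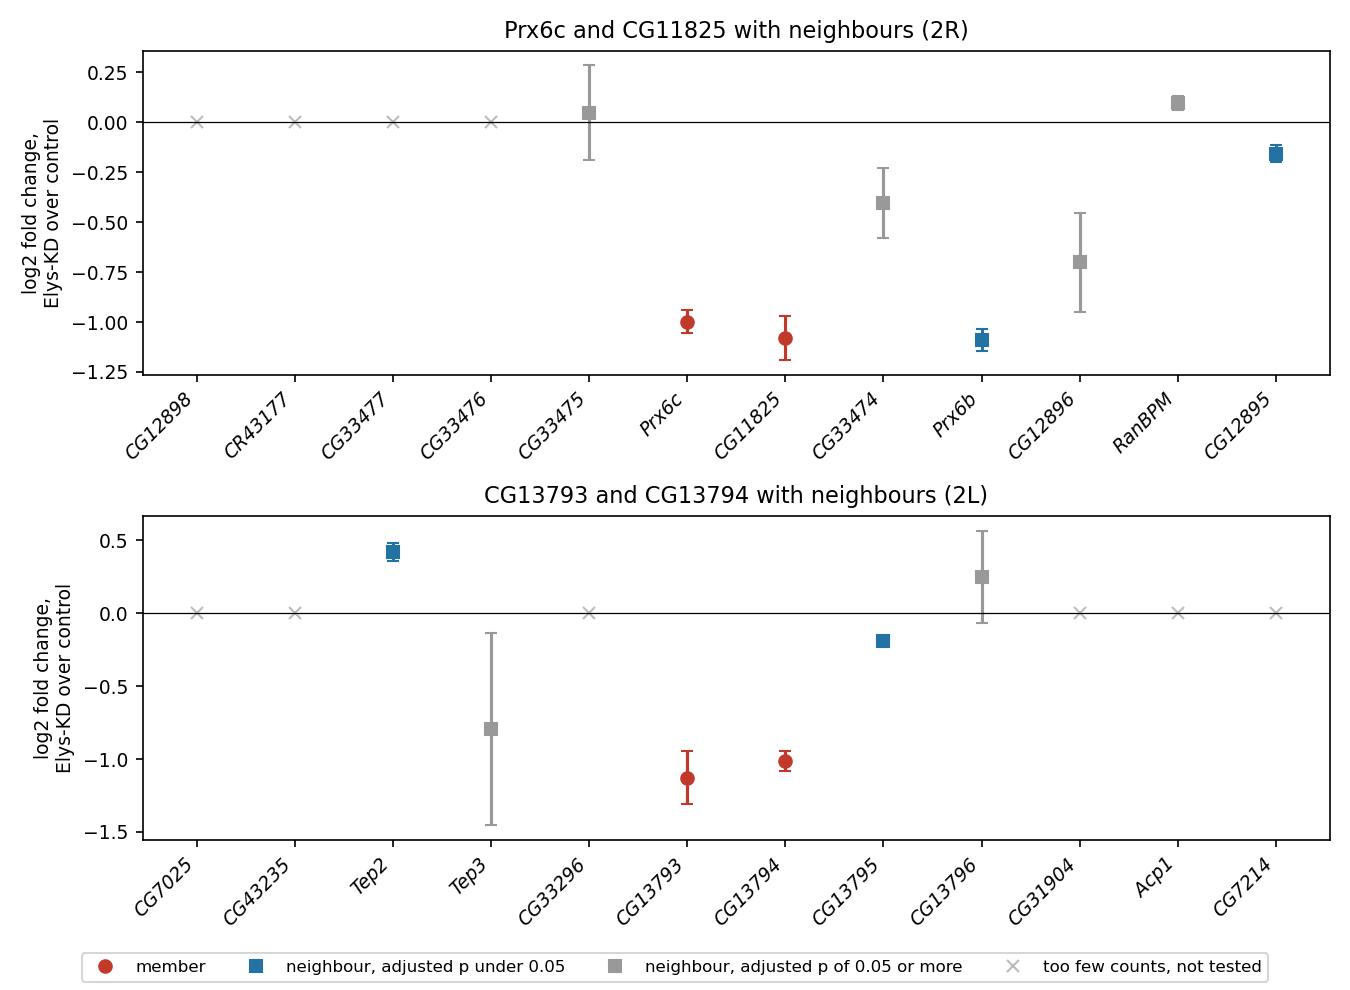
Log2 fold change (Elys-KD over control, with its SE as a bar) of Prx6c and CG11825 (upper panel) and CG13793 and CG13794 (lower panel) with 5 neighbours on each side, in chromosome order; positions are ranks, not distances. Red circles are the chosen genes, blue squares neighbours with an adjusted p under 0.05, grey squares other tested neighbours and crosses untested genes drawn at 0. Prx6b, at -1.09, lies as low as Prx6c and CG11825, while CG13795, beside CG13794, lies at -0.19.

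Among 8779 adjacent pairs of tested genes in that order, taken whatever their distance, 5 pairs had both genes called lower, and in 27 pairs both were called higher. Besides the pairs Prx6c with CG11825 and CG13793 with CG13794, these were the mucin gene Muc68Ca with Akr1B on 3L (ratios of mean TPM 0.483 and 0.663), the glutamate receptor gene GluRIIE with the neprilysin gene Nep4 on 3R (0.487 and 0.266, with 1 untested gene between them), and mt:ND4L with mt:ND6 on the mitochondrial genome (0.352 and 0.252). Placed in this order were 8786 of the 9156 tested genes, and 57 of the 59 genes called lower. Tested genes without a place could lie between genes counted as adjacent. The log2 fold changes were -1.10 and -0.62 for Muc68Ca and Akr1B, and -1.08 and -1.95 for GluRIIE and Nep4. The Prx6c pair and the CG13793 pair were chosen for this pattern and for the size of their changes, so neither their presence in the count nor the likeness of their fold changes is a result.

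Of the peroxiredoxins on the list, which leaves out CG12896, most of those other than Prx6c did not pass the test. Prx2, the most abundant, had 1689 and 1688 TPM in Elys-KD and 1721 and 1719 TPM in control, with a log2 fold change of -0.04 and an adjusted p of 0.337 by edgeR. Prx6a, another member of the Prx6 class, had 60.2 and 62.1 TPM in Elys-KD and 61.6 and 62.4 TPM in control (adjusted p = 0.663). Its groups overlapped, as did those of Prx5, whereas those of Prx6b, Prx2, Prx3 and Prx4 did not. Separate groups were therefore not particular to Prx6b, and the share of all tested genes with separate groups is not given here. The endoplasmic reticulum enzyme Prx4 (log2 fold change 0.03, adjusted p = 0.642) and Prx5 (0.01, adjusted p = 0.940) did not pass the test, and the mitochondrial Prx3 was lower by a small margin, at 106 and 107 TPM in Elys-KD against 117 and 115 TPM in control (log2 fold change -0.14, adjusted p = 0.0466). Of the 6 listed peroxiredoxins other than Prx6c, 2 (Prx6b and Prx3) were lower at an adjusted p under 0.05, against 8.56% of all tested genes. Prx6b is counted here although its values are not independent of those of Prx6c, which was chosen for its fall. The median log2 fold change of the 6 was -0.04, beside 0.00 for all tested genes, and it was -0.04 as well with CG12896 included.

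Other genes of antioxidant defence moved in both directions. Of 18 tested, 2 were lower and 4 higher at an adjusted p under 0.05, against 8.56% and 8.07% of all tested genes, none passed the rule on the ratio, and the median log2 fold change was 0.09. MsrA, which repairs oxidised methionine, was lower at 146 and 158 TPM in Elys-KD against 188 and 202 TPM in control (log2 fold change -0.37, adjusted p = 0.00547 by edgeR). Gclc, the catalytic subunit of the enzyme that begins glutathione synthesis, was higher at 84.8 and 79.2 TPM in Elys-KD against 67.8 and 68.8 TPM in control (0.22, adjusted p = 0.00939), and the glutathione transferase GstD1 was higher too (0.18, adjusted p = 0.0158).

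The other genes with a HIG1 domain had smaller fold changes than CG11825. CG11825 was chosen for its fall, so this difference follows from the choice and was not tested. CG9921 had 68.7 and 72.8 TPM in Elys-KD and 80.0 and 80.7 TPM in control, a log2 fold change of -0.17 (SE 0.045, adjusted p = 0.0414 by edgeR). CG17734 had 95.4 and 94.7 TPM in Elys-KD and 104 and 95.8 TPM in control (-0.08, SE 0.055, adjusted p = 0.350). Neither passed the rule on the ratio, and both were more abundant in control than CG11825. Among 10 tested subunits of complex IV, COX7C was the 1 gene with an adjusted p under 0.05 and was higher (log2 fold change 0.15, adjusted p = 0.0455), and the median log2 fold change of the 10 was 0.05. Of 7 tested genes of the hypoxia response, scyl, an inhibitor of TOR signalling, was lower (-0.34, adjusted p = 0.00112) and Thor, the translation repressor 4E-BP, was higher (0.44, adjusted p = 0.00327). Beside these counts of 1 of 10 and 2 of 7 stands the share of 16.6% over all tested genes in either direction.

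Most genes of the SLC6 family outside the pair were hardly expressed. Of the 20 listed genes, 15 were under 1 TPM in every library, and CG13795, bdg, CG13794, CG15279 and CG13793 were the exceptions. Of the 10 tested besides CG13793 and CG13794, 1 (CG13795) was lower and 2 were higher at an adjusted p under 0.05, against 8.56% and 8.07% of all tested genes, and the median of the 10 was a log2 fold change of 0.15. CG15279 rose to 4.88 and 4.79 TPM in Elys-KD, against 2.88 and 2.72 TPM in control (log2 fold change 0.74, adjusted p = 0.00365 by edgeR). Its direction is opposite to that of CG13794, whose level it resembled in Elys-KD but not in control. CG10804 was higher at 0.112 and 0.101 TPM in Elys-KD against 0.0441 and 0.0457 TPM in control (1.15, adjusted p = 0.0413), with 24 and 23 counts in Elys-KD and 12 and 11 in control. Both also passed the rule on the ratio, 2 of 10 against 2.54% of all tested genes in the higher direction.

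Among 10 tested amino acid transporters of other families, 3 were lower and 1 higher at an adjusted p under 0.05, against 8.56% and 8.07% of all tested genes, the median log2 fold change was -0.04 and none passed the rule on the ratio. The largest of these changes were those of gb (-0.29, adjusted p = 0.00314 by edgeR), of the amino acid exchanger subunit mnd (-0.17, adjusted p = 0.0154) and of CG7255 (0.17, adjusted p = 0.0148).

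Several of these adjusted p-values were not under 0.05 in every setting. Over the settings tried, the highest adjusted p was 0.262 for CG12895, 0.215 for Prx3, 0.172 for CG9921, 0.252 for COX7C, 0.287 for CG10804 and 0.0941 for CG13795. For Prx6b it was 0.000914, and for CG15279 it was 0.0275, both under the threshold.

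**Figure D4:**
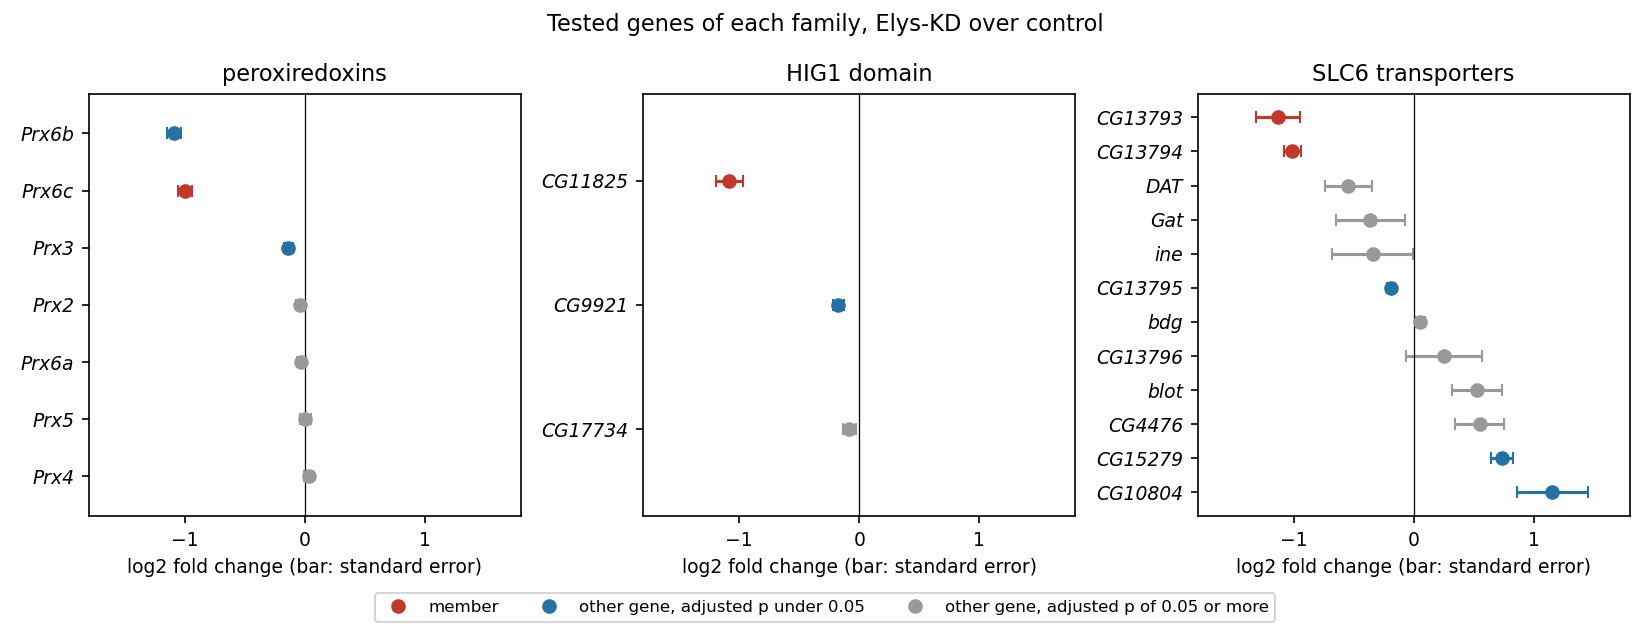
Log2 fold change (Elys-KD over control, horizontal axis, SE as a bar) of the tested genes of 3 families: peroxiredoxins, HIG1-domain genes and SLC6 transporters. Red marks Prx6c, CG11825, CG13793 and CG13794, blue other genes with an adjusted p under 0.05 and grey the rest. Prx6b, at -1.09, is the only other gene near the red points, and CG15279 (0.74) and CG10804 (1.15) lie on the opposite side.

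The profile of each gene over the 4 libraries was compared with that of every tested gene, by the root mean square difference of log2 CPM (counts scaled to library size) centred per gene. The libraries that chose the 4 genes enter this measure, and it is given as a description. The profiles of Prx6c and Prx6b are also not independent, since fragments were divided within their group. Closest to Prx6c was Prx6b (0.0568), followed by CG7781 (0.0727) and SPE (0.0735), a serine protease of the Toll pathway, and CG11825 came at rank 5. Closest to CG11825 were GluRIIE (0.0551), Prx6c (0.0753) and Prx6b (0.0937). CG13794, of the other pair, came at rank 7 for Prx6c and at rank 6 for CG11825, so nearness was not particular to the genes on 2R.

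Closest to CG13793 were CG31274 (0.0414), CG7166 (0.0875) and the adenylyl cyclase gene Ac13E (0.0999), and CG13794 came at rank 15. Closest to CG13794 were CG16762 (0.0638), Prx6c (0.0814) and Muc68Ca (0.0824), and CG13793 came at rank 53. Of the Elys-KD libraries, replicate 1 was the lower one for CG13793 and the higher one for CG13794, with ratios of replicate 1 to replicate 2 of 0.733 and 1.05. CG16762 stood far above CG13794 in level, with 1002 and 1001 TPM in Elys-KD and 2179 and 2151 TPM in control.

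The length that the estimate assigns to a gene, weighted by the isoforms found, did not choose the genes. For CG11825 it was 613.4 and 623.3 bp in Elys-KD and 606.0 and 608.1 bp in control. This small difference was not tested or compared with other genes, and no shift between isoforms is read from it. The lengths of Prx6c (856 bp), CG13793 (1929 bp) and CG13794 (2027 bp) were the same in all libraries. A gene counted with a single transcript length would also have these values, so they do not inform on isoforms. Subtracting the fragments left a shorter effective length in control, since the median difference between length and effective length was 184.1 and 184.4 bp in Elys-KD and 203.0 and 204.7 bp in control. For Prx6c the effective length was 672.0 and 671.6 bp in Elys-KD and 653.1 and 651.4 bp in control. With the effective length as an offset, the log2 fold changes were -1.02 for Prx6c, -1.16 for CG11825, -1.13 for CG13793 and -1.01 for CG13794. Among the 1446 tested genes between 500 and 1000 bp, the class of Prx6c and CG11825, the median log2 fold change was 0.01 and 1.04% were called lower. In the class of CG13793, between 1000 and 2000 bp, 0.708% of 3250 genes were called lower, and in that of CG13794, between 2000 and 4000 bp, 0.477% of 2933.

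How far the size of the 4 fold changes depends on the processing is given by their range over the settings. Since these counts chose the genes, the sign is fixed by the choice and the range only describes these libraries. Over 10 settings for each gene, and 11 for Prx6c, the log2 fold change lay between -1.08 and -0.92 for Prx6c, between -1.25 and -0.93 for CG11825, between -1.39 and -0.68 for CG13793 and between -1.07 and -0.85 for CG13794. The single Elys-KD libraries set the ends of the range for CG11825, which had a log2 fold change of -1.25 without Elys-KD replicate 1 and of -0.93 without Elys-KD replicate 2. For CG13793 the corresponding values were -0.91 and -1.39, in the opposite order. The smallest change of CG13793, -0.68, came from the test on log2(TPM + 1), a scale that compresses changes of genes near 1 TPM.

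**Figure D5:**
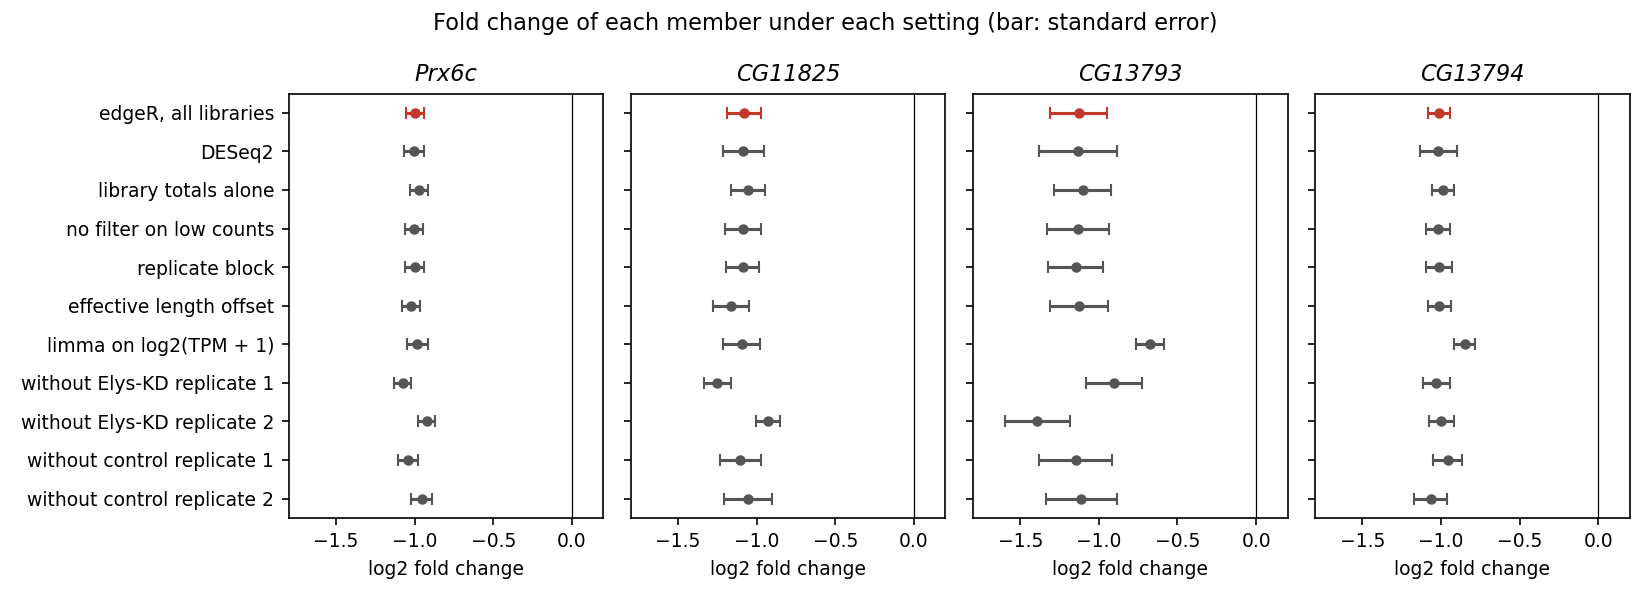
Log2 fold change (Elys-KD over control, SE as a bar) of Prx6c, CG11825, CG13793 and CG13794 under the edgeR fit of all libraries (red) and under other tools, scalings and filters or with 1 library left out (grey). Every value lies below 0, and the spread is widest for CG13793, from -1.39 to -0.68.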

How the data were processed

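The authors sequenced poly(A+) RNA (the labels name both single-end sequencing and paired-end reads, the paper's methods paired-end), and clipped and mapped the reads to the dm3/R5 genome with genes of a FlyBase release 5 annotation; the submitters' processing notes name Salmon, HISAT2 and DESeq2, without versions. The authors deposited, per gene and library, an estimated count of fragments without normalization, a TPM value scaled to the same sum in every library, and a gene length and effective length in bp.

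Estimated counts were rounded and fitted with edgeR 4.0.16 in R 4.3.3 (TMM, filterByExpr, glmQLFit and glmQLFTest, no block, Benjamini-Hochberg adjustment over 9156 genes). The SE of an edgeR fit was derived as the absolute log2 fold change divided by the square root of the quasi-likelihood F statistic. DESeq2 1.42.0 and limma 3.58.1 on log2(TPM + 1) were alternatives, and limma was given a pseudocount of 1 TPM. Other steps used Python 3.11.15, pandas 2.3.3, NumPy 2.4.6 and Matplotlib 3.10.9. Scripts were checked on simulated counts. Symbols were found for 13389 genes.

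The 4 genes and all lists were chosen with earlier results of these data known. Named besides them are 5 neighbours on each side, paralogues, up to 3 genes per list with the largest change at an adjusted p under 0.05, the 3 nearest profiles, Elys, and adjacent pairs called lower; bdg, and Akr1B, CG8673, btn and miple1 at the threshold, were named after their values were seen. The symbols SelR, sima, Hph, vas and nos were not matched and are not analysed here, nor is Ntl, an SLC6 gene near CG33296. DamID domains, promoter motifs and protein sequences were not used here.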

Additional observations from a re-analysis of the deposited data

How the results depend on the processing

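The values of Prx6c, CG11825, CG13793 and CG13794 chose these genes, so the settings describe the size of their fold changes and give no support to them. The settings were DESeq2, limma on log2(TPM + 1), library totals alone, no filter on low counts, the effective length offset, the replicate block and each library left out. Leaving out 1 library gave log2 fold changes of -1.0762 to -0.9225 for Prx6c, -1.2492 to -0.929 for CG11825, -1.3908 to -0.9055 for CG13793 and -1.0664 to -0.9566 for CG13794. A pseudocount of 1 TPM moved the ratio of mean TPM to 0.627 for CG13793 and 0.5555 for CG13794. Over all genes, a ratio over 2 left 110 calls (21 lower, 89 higher) and no longer counted Prx6c (1.99-fold lower) and CG13794 (1.97-fold lower), the adjusted p alone gave 1523, and other settings gave 204 with DESeq2, 218 with no filter, 305 with limma and 217 to 332 with 1 library left out.

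No label says that a replicate number marks a shared batch, and deviations of same-numbered libraries correlated at -0.0863 over 9156 genes. The replicate block gave 299 calls (58 lower, 241 higher), and CG13795 (adjusted p = 0.0508), CG12895, Prx3, COX7C and CG10804 lost an adjusted p under 0.05. Prx6b, MsrA, CG15279, Thor, Tep2, gb and scyl kept theirs under every setting run, whereas CG12895 lost it in 8 of 10 settings, Prx3 in 7, CG9921 and COX7C in 6, CG10804 in 6 of 9, CG13795 and CG7255 in 3, and mnd, GstD1 and Gclc in 2. Some small changes turned round without passing the test. With the effective length offset, CG33475 was at -0.0129 and Prx5 at -0.0215. With 1 library left out, the log2 fold change ran over -0.0007 to 0.0947 for CG33475, -0.031 to 0.0429 for Prx5, -0.0695 to 0.0129 for Prx6a, -0.0118 to 0.0785 for Prx4 and -0.1598 to 0.0021 for CG17734. The cause of these changes was not tested.

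CG13793 had 83 to 247 counts per library, which limits its precision, and its Elys-KD libraries stood in the ratio 0.733. With 2 libraries per group, each fit without 1 library assumes that a lone library varies like the other group. Fragments divided between Prx6c, Prx6b and CG12896, and between CG13794 and CG13795, tie their values together. The comparison of promoter windows for motifs was not run.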
